A study of Mus musculus with 6 samples.

Results

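The genes of respiratory complexes II to V were followed here in whole mammary glands with and without Mmp14 in the stroma. Members were the genes with a one-symbol probe set whose symbol begins with Sdh (subunits a to d and the Sdhaf assembly factors), Uqcr, Cox4 to Cox8, Cox10 to Cox19 or Atp5, together with Cyc1 and Cycs; Cox7a1 and Cox8b were left aside. This gave 58 of 22180 genes, of which 8 belong to complex II, 9 to complex III, 22 to complex IV and 18 to complex V, and 1 encodes cytochrome c. The members include 12 assembly factors, which help to build a complex, and 2 pseudogenes, Uqcrh-ps1 and Atp5c1-ps. Cox7a2l, which promotes supercomplexes of complexes III and IV, is counted among the 12. Uqcr10, Cox6c and Cox11 had no one-symbol probe set. None of 13 mitochondrially encoded genes looked for by symbol matched, so every value below is of a nuclear gene.

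RNA came from inguinal mammary glands of C57BL/6J mice aged 4 weeks, on 1 array per biological replicate. The wild-type group, Mt1-mmp(+/+), held 3 mice, and the stromal knockout group, Dermo1Cre/Mt1-mmp(fl/fl), held 3. Mt1-mmp is the older name of Mmp14, a membrane-bound matrix metalloproteinase, and Dermo1 that of Twist2, whose locus drives Cre in mesenchymal cells, a lineage that includes adipocyte precursors. Both genotypes came from the same litters, per the series' design text, and the labels name Dermo1Cre for the knockouts only and do not say whether wild types carried it, so an effect of Cre itself and the loss of Mmp14 cannot be told apart. Mmp14 read 11.18, 10.55 and 10.90 in wild type and 8.57, 8.55 and 8.75 in the knockout. Krt8, a keratin of luminal epithelium, read 8.79 to 9.23 in wild type, so the labelled epithelium-bearing tissue showed its marker, and 5.59 to 6.46 in the knockout. In whole tissue, fewer cells of a type and less RNA per cell cannot be told apart.

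Respiratory complexes sit in the inner mitochondrial membrane. Complex II (succinate dehydrogenase) passes electrons from the citric acid cycle to ubiquinone, complex III passes them to cytochrome c, and complex IV (cytochrome c oxidase) hands them to oxygen, while complex V (ATP synthase) uses the resulting proton gradient to make ATP. Brown and beige adipocytes are rich in complexes II to IV and spend the gradient as heat through Ucp1. White fat has fewer mitochondria, and the mammary fat pad surrounds the ducts with such adipocytes.

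Genes of all 4 complexes lay higher in the knockout gland. Of the 58 members, 31 rose and 0 fell at a limma p-value adjusted over all genes under 0.05, where 5.05% of all genes rose and 7.2% fell (1121 and 1596 genes). Centring the arrays on their medians raised the median difference of all genes by 0.19; 3155 genes then rose and 1178 fell, and 43 members rose and 0 fell. Centring shifts every gene alike, so the distance of 0.47 between the members' median and that of all genes is the same by construction. With repeated quantile normalization 26 members rose and 0 fell, where 1272 of all genes rose and 1449 fell. At an unadjusted limma p under 0.05, 43 members lay higher and 0 lower. The share of all genes at that threshold was not counted, so unadjusted counts here and below stand without a background. The rises were small, from 0.42 to 1.01 log2 units or 1.34- to 2.02-fold, and the median difference over the members was 0.50 log2 units (1.42-fold), against 0.03 over all genes. In 44 members all 3 knockout arrays lay above all 3 wild-type arrays, as in 17.2% of all genes, and in 0 members all 3 lay below, as in 15.4% of all genes. The count of rises depended on the arrays kept, among the members and among all genes. It was 13 without wild type 1 (521 of all genes), 25 without wild type 2 (735) and 15 without wild type 3 (587). Without knockout 1 it was 17 (695 of all genes), without knockout 2 it was 10 (494) and without knockout 3 it was 20 (877). The members' median difference was 0.48 without wild type 1 and 0.50 to 0.52 without the others. The 10 members that rose whichever array was left out were Sdhd, Cyc1, Uqcrc1, Uqcr11, Cox5a, Cox4i1, Cox10, Cox14, Cox17 and Atp5l.

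**Figure D1:**
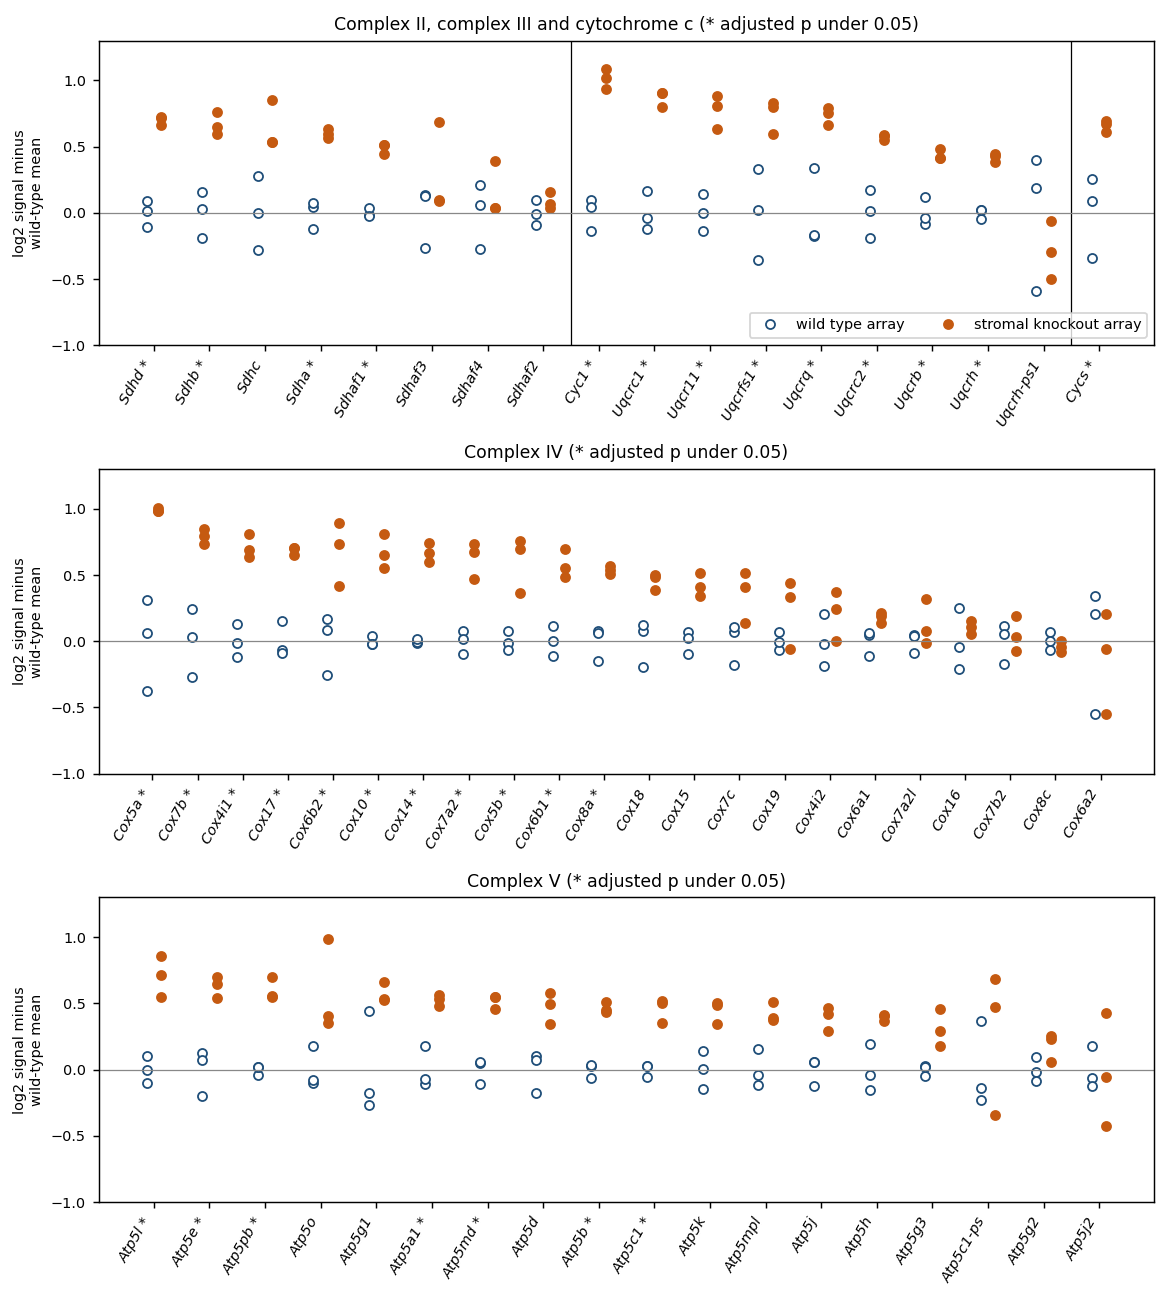
Log2 signal of each of the 58 genes on each array, minus the gene's own wild-type mean, for wild type (open circles, 3 arrays) and stromal knockout (filled circles, 3 arrays); an asterisk marks a gene past the threshold. In 44 genes the 3 filled circles lie above all 3 open ones, and Cyc1 and Cox5a stand out with rises of 1.01 and 0.99.

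Several cell types moved with the respiratory genes, and their part in these differences was not tested. The limma counts below stand beside 5.05% of all genes that rose and 7.2% that fell. Of 14 measured thermogenic adipocyte markers, 7 rose and 0 fell (limma; 9 and 0 at an unadjusted p under 0.05). Their mean level lay between 5.30 and 6.27 log2 units on the wild-type arrays and between 6.85 and 7.18 on the knockout arrays, and Zic1 read under 2.68 on every array, the level under which 33% of gene means lie and which was taken as the limit for low signals. Ucp1 read 4.88, 8.80 and 7.12 in wild type and 9.23, 9.62 and 11.07 in the knockout, so the groups did not overlap, but wild type ranged widely. Of 13 white adipocyte markers, 4 rose and 0 fell (7 and 0 unadjusted), with mean levels of 10.65 to 10.68 in wild type and 11.03 to 11.18 in the knockout. All 15 luminal markers fell, with mean levels of 7.55 to 7.73 in wild type and 5.45 to 5.70 in the knockout. Of 10 basal epithelial markers 8 fell, with mean levels of 5.78 to 6.19 against 4.16 to 4.51. Falls were also seen in 6 of 11 fibroblast markers (10.34 to 10.60 against 9.73 to 9.88) and 6 of 10 macrophage markers (8.60 to 8.93 against 8.10 to 8.25). Of 8 lymphocyte markers 1 fell, near the share of all genes, and mean levels overlapped (3.64 to 4.09 against 3.49 to 3.84). Of 9 endothelial markers 3 rose and 0 fell (limma; 7 and 1 at an unadjusted p under 0.05), with mean levels of 7.71 to 7.87 against 8.06 to 8.53. The mean level of 22 skeletal muscle markers was 5.19 on wild type 1, 3.34 to 3.66 on the other wild-type arrays and 3.32 to 3.39 on the knockout arrays; Myh7 and Tnnt1 lay under 2.68 on every array, and 1 of the 22 rose (Des) and 1 fell (Tnni1, which did not pass with array medians centred, adjusted p = 0.109). Wild type 1, the array high in muscle genes, was the lowest wild-type array for 36 of the 58 respiratory genes and the lowest for the thermogenic markers. Wild type 2, the highest wild-type array for the thermogenic markers, was also the highest for 32 of the 58. In complex V, however, wild type 2 was the highest for 4 of 18 members and wild type 3 for 10 of 18. How often each array was lowest or highest over all genes was not counted.

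**Figure D2:**
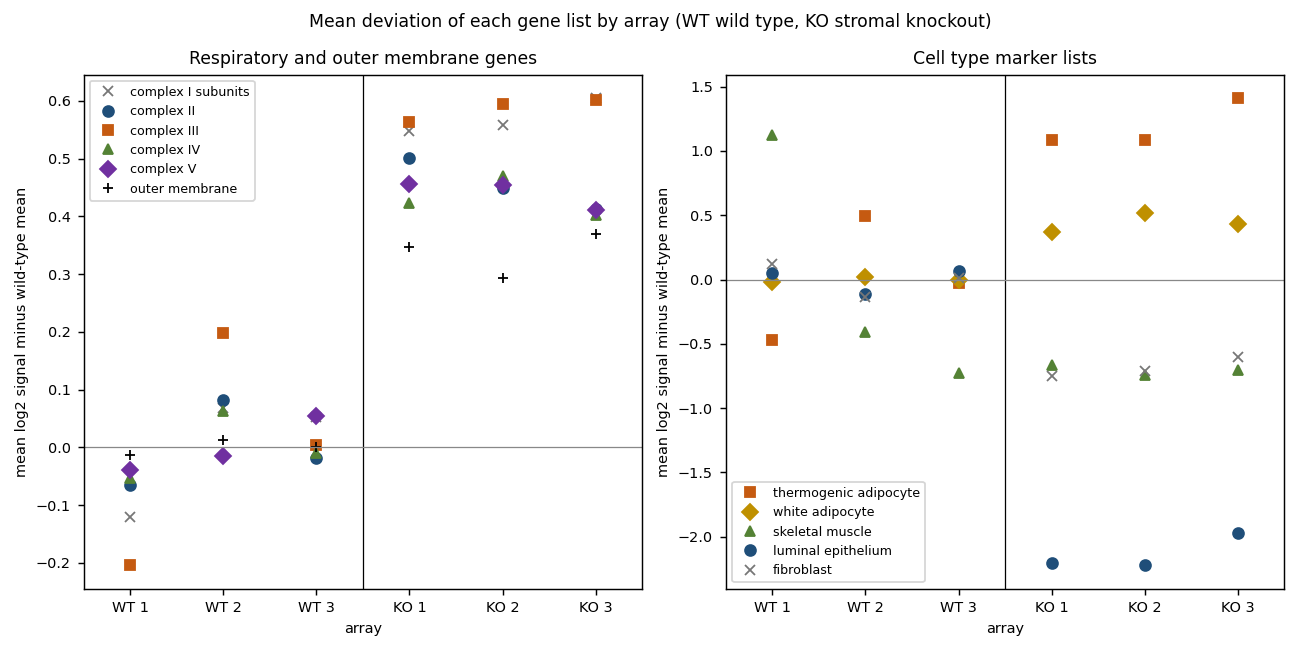
Mean log2 signal of gene lists on each array (WT wild type, KO stromal knockout; 3 arrays each), minus the wild-type mean, for respiratory and outer membrane genes (left) and cell type markers (right). On the knockout arrays complex II lies at 0.41 to 0.50, complex III at 0.56 to 0.60, complex IV at 0.40 to 0.47 and complex V at 0.41 to 0.46. Thermogenic markers lie there at 1.08 to 1.41 and luminal markers at -2.22 to -1.97.

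Because all 31 members past the threshold rose, the promoters of the members were read for short motifs of factors known to act on respiratory genes. RefSeq windows of 300 bases (250 before and 50 after the start site, GRCm38.p6) matched 43 of the 58 members. The motifs were searched as exact letters on both strands: GCATGCG for NRF1, whose reverse complement overlaps it by all but 1 base, CCGGAAG for GABP, AAGGTCA for estrogen-related receptors (ERR) and AAGATGG for YY1. A GABP match was present in 20 of 43 members (46.5%) and in 9.93% of all 27025 genes with a window. An NRF1 match was present in 9 members (20.9%, against 4.01% of all genes). ERR letters were found in 5 members (11.6%, against 5.38%) and YY1 letters in 5 (11.6%, against 7.28%). Among members that rose, 12 of 24 held the GABP letters and 5 held the NRF1 letters. Among those not past the threshold 8 of 19 and 4 did. The general promoter letters CCAAT and TATAAA were searched as well. CCAAT occurred in 15 of 24 members that rose and 7 of 19 that did not pass, against 41.1% of all genes. TATAAA occurred in 3 and 2 of these, against 15.7%. The differences between these shares were not tested. The windows of 5 members that rose are printed with those of Cox6a1 and Atp5g2, which did not pass, to set both kinds side by side; they were picked with their values known. Capitals mark matches to the NRF1, GABP, ERR and YY1 letters only.
Sdhd, GRCm38.p6 chr9:50603800-50604099, minus strand: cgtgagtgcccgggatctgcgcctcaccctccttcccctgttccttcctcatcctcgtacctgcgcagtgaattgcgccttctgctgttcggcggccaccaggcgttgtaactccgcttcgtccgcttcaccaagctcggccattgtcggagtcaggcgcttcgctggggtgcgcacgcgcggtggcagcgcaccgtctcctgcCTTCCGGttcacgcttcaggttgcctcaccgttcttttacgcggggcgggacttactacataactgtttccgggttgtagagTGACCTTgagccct
Uqcrc1, GRCm38.p6 chr9:108936398-108936697, plus strand: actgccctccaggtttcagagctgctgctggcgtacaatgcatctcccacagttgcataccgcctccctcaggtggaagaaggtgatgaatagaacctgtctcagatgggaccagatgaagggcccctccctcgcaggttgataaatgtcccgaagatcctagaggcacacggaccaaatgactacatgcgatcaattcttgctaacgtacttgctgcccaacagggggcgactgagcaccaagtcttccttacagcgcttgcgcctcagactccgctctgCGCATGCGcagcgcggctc
Cycs, GRCm38.p6 chr6:50566520-50566819, minus strand: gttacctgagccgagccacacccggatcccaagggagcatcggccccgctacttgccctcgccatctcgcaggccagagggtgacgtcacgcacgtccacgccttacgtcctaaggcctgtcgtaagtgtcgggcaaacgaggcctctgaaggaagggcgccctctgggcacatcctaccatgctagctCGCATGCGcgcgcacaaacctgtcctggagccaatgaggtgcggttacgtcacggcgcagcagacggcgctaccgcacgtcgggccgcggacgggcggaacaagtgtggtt
Cox5a, GRCm38.p6 chr9:57520982-57521281, plus strand: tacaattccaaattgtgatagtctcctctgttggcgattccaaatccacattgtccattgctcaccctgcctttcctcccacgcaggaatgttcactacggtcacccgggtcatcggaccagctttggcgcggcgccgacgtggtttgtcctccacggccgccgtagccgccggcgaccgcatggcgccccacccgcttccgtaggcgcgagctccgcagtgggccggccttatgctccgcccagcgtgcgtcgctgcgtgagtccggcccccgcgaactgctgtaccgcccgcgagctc
Atp5l, GRCm38.p6 chr9:44920693-44920992, minus strand: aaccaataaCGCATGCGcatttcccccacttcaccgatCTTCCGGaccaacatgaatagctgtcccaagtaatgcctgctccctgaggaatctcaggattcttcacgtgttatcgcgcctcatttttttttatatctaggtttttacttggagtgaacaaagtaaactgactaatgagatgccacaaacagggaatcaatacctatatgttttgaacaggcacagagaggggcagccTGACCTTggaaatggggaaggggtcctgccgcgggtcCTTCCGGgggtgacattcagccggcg
Cox6a1, GRCm38.p6 chr5:115348909-115349208, minus strand: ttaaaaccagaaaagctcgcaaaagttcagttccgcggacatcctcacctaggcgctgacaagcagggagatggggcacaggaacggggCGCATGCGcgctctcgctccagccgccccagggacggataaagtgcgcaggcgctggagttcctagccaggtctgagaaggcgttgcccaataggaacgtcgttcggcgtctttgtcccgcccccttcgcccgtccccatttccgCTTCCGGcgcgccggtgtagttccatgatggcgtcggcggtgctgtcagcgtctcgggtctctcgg
Atp5g2, GRCm38.p6 chr15:102670998-102671297, minus strand: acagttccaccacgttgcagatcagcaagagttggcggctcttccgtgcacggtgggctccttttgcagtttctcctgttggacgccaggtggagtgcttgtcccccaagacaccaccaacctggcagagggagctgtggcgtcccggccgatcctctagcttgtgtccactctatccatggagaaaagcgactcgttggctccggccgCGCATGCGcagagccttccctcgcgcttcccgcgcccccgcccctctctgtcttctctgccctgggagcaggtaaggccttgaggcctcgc
The capitals in Uqcrc1, Cycs and Atp5g2 are NRF1 letters read on both strands, and those in Sdhd the GABP and ERR letters in reverse complement. Cox6a1 holds NRF1 and GABP letters, and Atp5l holds NRF1 letters, ERR letters and 2 GABP matches. Cox5a has none of these letters in its window. Matches thus occurred in members that rose and in members that did not pass, and they describe letters, not binding.

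In complex II, the subunit genes lay higher and most assembly factor genes did not pass. Of the 8 members, 4 rose: Sdhd, Sdhb, Sdha and the assembly factor Sdhaf1. Values are listed here and below for replicates 1, 2 and 3 of each group, in log2 units. Sdhd, a membrane anchor that binds heme and ubiquinone with Sdhc, read 9.22, 9.34 and 9.41 in wild type and 10.04, 9.99 and 10.05 in the knockout. The knockout arrays were tightly grouped and all lay above wild type. The rise of Sdhd was 0.70 ± 0.11 (SE), or 1.63-fold, with a limma adjusted p of 0.00735. Sdhb, the iron-sulfur subunit, read 8.77, 8.98 and 9.11 in wild type against 9.55, 9.71 and 9.60, a rise of 0.67 ± 0.13 (adjusted p = 0.0155). Sdha, the flavin-bearing catalytic subunit, read 10.44, 10.60 and 10.63 against 11.12, 11.19 and 11.15, a rise of 0.60 ± 0.11 (adjusted p = 0.0132). For both catalytic subunits the groups were clearly apart. Sdhc read 9.54, 10.10 and 9.82 against 10.67, 10.35 and 10.35, a difference of similar size (0.64 ± 0.17) whose wider spread left it just short of the threshold (adjusted p = 0.0504).

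Of the 4 assembly factors of complex II, 1 passed. Sdhaf1, which helps to insert iron-sulfur clusters into Sdhb, rose by 0.49 ± 0.10 (adjusted p = 0.0223), from 6.60 to 6.66 in wild type to 7.06 to 7.14 in the knockout. Another Sdhaf1 probe set, 17476360, with a lower level, differed by 0.23 ± 0.13 and did not pass (limma adjusted p = 0.333 over all one-symbol probe sets). Sdhaf2, needed for attaching the flavin to Sdha, read 7.95, 7.86 and 8.05 against 7.99, 8.02 and 8.11. These overlapped, and the 95% interval of the difference ran from -0.18 to 0.35 log2 units (adjusted p = 0.69). Sdhaf3 differed by 0.29 and Sdhaf4 by 0.15, also with overlapping groups. The complex II count was 1 of 8 without wild type 1 or knockout 2: Sdhb and Sdha lost their calls there (adjusted p 0.0528 to 0.0631 and 0.0506 to 0.0556), and Sdhaf1 without any 1 array other than wild type 2 (0.0567 to 0.0706).

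Complex III had the largest median difference of the 4 complexes, 0.74 log2 units (1.67-fold), although differences between complexes were not tested. Its members hold no assembly factors, unlike those of complexes II and IV, so the sets compared are unlike. Over subunits common to all tissues the medians were 0.65 in complex II, 0.74 in III, 0.61 in IV and 0.46 in V. All 8 of its protein-coding members rose, with 0 falls (limma). Cyc1, the cytochrome that donates electrons to cytochrome c, had the largest rise of all 58 members. Cyc1 read 7.83, 8.07 and 8.01 in wild type and 8.90, 9.06 and 8.99 in the knockout. The gap between the groups was several times the spread within either, and the rise was 1.01 ± 0.12, or 2.02-fold (adjusted p = 0.00227). Uqcrc1, a large core protein facing the matrix, read 9.58, 9.86 and 9.66 against 10.50, 10.61 and 10.61 and rose by 0.87 ± 0.12 (adjusted p = 0.00457). Uqcr11, a small supernumerary subunit, read 6.23, 6.51 and 6.37 against 7.01, 7.25 and 7.18 and rose by 0.78 ± 0.13 (adjusted p = 0.00882). In each of these the lowest array was wild type 1, as in all 9 complex III members.

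The other complex III subunits rose by 0.42 to 0.74. Uqcrfs1, the Rieske iron-sulfur protein, rose by 0.74 ± 0.18 and the small subunit Uqcrq by 0.74 ± 0.16. The other core protein, Uqcrc2, rose by 0.57 ± 0.13, and the small subunits Uqcrb and Uqcrh, the latter a hinge protein near the cytochrome c site, by 0.44 ± 0.11 and 0.42 ± 0.10. Adjusted p for these 5 genes lay between 0.0239 (Uqcrq) and 0.0433 (Uqcrb). The pseudogene Uqcrh-ps1 read 1.28, 2.28 and 2.07 in wild type and 1.81, 1.38 and 1.58 in the knockout, under the low limit of 2.68, where a difference cannot be read. With 1 array fewer, 3 of the 8 rises held (Cyc1, Uqcrc1 and Uqcr11), or 6 where the array left out was wild type 2. Uqcrfs1, Uqcrq and Uqcrc2 lost their calls without any 1 of the other 5 arrays (adjusted p 0.0552 to 0.114), and Uqcrb and Uqcrh without any of the 6 (0.0521 to 0.128).

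Cytochrome c, the mobile carrier between complexes III and IV, is encoded by Cycs. Its probe set read 10.41, 11.01 and 10.84 in wild type and 11.36, 11.43 and 11.45 in the knockout. The knockout arrays agreed closely while wild type 1 lay well under the others, and the rise was 0.66 ± 0.17 (adjusted p = 0.0393). The call was lost when any array but wild type 2 was left out (adjusted p 0.0796 to 0.108). Cycs had 5 one-symbol probe sets, with differences of 0.54 to 0.98. Probe set 17358271 differed by 0.54 with overlapping groups and did not pass (limma adjusted p = 0.144 over all one-symbol probe sets). Of the 5, 17548102 and 17548541 held the same group means and difference. Cytochrome c has many near-identical processed pseudogenes, so the signal of a probe set cannot be assigned to 1 locus with certainty.

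In complex IV, the ubiquitous nuclear subunits lay higher, whereas most tissue-restricted isoforms among the members did not pass. Of those isoforms, Cox7b2 and Cox8c lay under the low limit of 2.68 on every array. The restricted isoforms Cox7a1 and Cox8b, left aside from the members, rose by 2.01 and 1.81. Of 22 members 11 rose and 0 fell (limma), among them 7 of 9 ubiquitous subunits, 3 of 7 assembly factors and 1 of 5 tissue-restricted isoforms. Cox5a, a subunit that joins early in assembly, read 7.72, 8.15 and 8.40 in wild type and 9.08, 9.09 and 9.07 in the knockout. Wild type varied much more than the knockout, yet the groups stayed apart, with a rise of 0.99 ± 0.18, or 1.99-fold (adjusted p = 0.0111). Cox7b read 8.17, 8.69 and 8.47 against 9.24, 9.29 and 9.18 and rose by 0.79 ± 0.15 (adjusted p = 0.0142). Cox4i1, the common form of the regulatory subunit that binds adenine nucleotides, read 9.53, 9.64 and 9.78 against 10.45, 10.33 and 10.28 and rose by 0.71 ± 0.12 (adjusted p = 0.00935). Cox7a2, Cox5b, Cox6b1 and Cox8a rose by 0.54 (Cox8a) to 0.63 (Cox7a2). Cox5b and Cox7b each had another probe set with a lower level, 17211850 and 17537048, and both overlapped between groups. These differed by 0.43 ± 0.26 and 1.01 ± 0.42 and did not pass (limma adjusted p = 0.347 and 0.177 over all one-symbol probe sets). The count of complex IV rises was 6 with either wild type 1 or 3 left out and 5 with knockout 2 left out. Cox7b lost its call without knockout 2 (adjusted p = 0.0557), Cox7a2 and Cox6b1 without wild type 1, wild type 3 or knockout 2 (0.0513 to 0.0789), Cox8a also without knockout 1 (0.0548 to 0.0768), and Cox5b when any array but knockout 3 was left out (0.0666 to 0.0966).

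Isoform genes of complex IV allow the common and restricted forms to be set side by side, each against its own wild-type level. Cox4i2, a form known from lung and for its link to oxygen supply, read 3.92, 4.32 and 4.09 in wild type and 4.48, 4.11 and 4.35 in the knockout. The groups overlapped, and the difference of 0.20 ± 0.15 did not pass (adjusted p = 0.451; 95% interval -0.15 to 0.56), beside the rise of 0.71 in Cox4i1. Cox6a2, the heart and muscle form, read 4.19, 3.29 and 4.05 against 3.78, 4.05 and 3.29. These values were fully mixed between groups, at -0.13 ± 0.28 (adjusted p = 0.804), with an interval wide enough (-0.77 to 0.50) to hold changes in either direction. Its sign turned positive with array medians centred (0.05), repeated quantile normalization (0.04), or without wild type 1 (0.04) or knockout 3 (0.07). Cox6a1, the common form, read 12.76, 12.77 and 12.60 against 12.85, 12.90 and 12.93. All knockout arrays were above wild type but by only 0.18 ± 0.11 (adjusted p = 0.36; interval -0.08 to 0.44), at a level near the array maxima of 13.3 to 13.4.

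Cox6b2, a form known from testis, was the restricted member that rose. It read 4.90, 4.98 and 4.56 in wild type and 5.55, 5.71 and 5.23 in the knockout, a rise of 0.68 ± 0.17 (adjusted p = 0.0391) beside 0.58 ± 0.12 for its common partner Cox6b1 (9.12, 9.35 and 9.24 against 9.72, 9.94 and 9.79; adjusted p = 0.0202). The groups of both were apart, but Cox6b2 lost its call when any array but knockout 3 was left out (adjusted p 0.0595 to 0.124). Cox7a2 read 7.67, 7.85 and 7.78 against 8.24, 8.50 and 8.44, a rise of 0.63 ± 0.12 (adjusted p = 0.0162). Its relative Cox7a2l, which promotes supercomplexes of complexes III and IV, read 6.34, 6.47 and 6.47 against 6.41, 6.50 and 6.75 and did not pass (0.13 ± 0.13, adjusted p = 0.59; interval -0.17 to 0.43). Cox8a read 10.52, 10.75 and 10.73 against 11.23, 11.20 and 11.17, a rise of 0.54 ± 0.12 (adjusted p = 0.023). Cox7b2 and Cox8c are known from germ cells. Cox7b2 read 1.86, 2.15 and 2.09 against 1.96, 2.23 and 2.07, and Cox8c read 1.43, 1.57 and 1.50 against 1.50, 1.45 and 1.42. Both lay under the low limit of 2.68 on every array, with differences of 0.05 ± 0.13 and -0.04 ± 0.11 (adjusted p = 0.853 and 0.851). The muscle and brown fat isoforms Cox7a1 and Cox8b were left aside from the members. Cox7a1 read 5.85, 7.29 and 6.54 in wild type and 8.06, 8.79 and 8.85 in the knockout, and Cox8b read 7.25, 8.43 and 7.79 against 9.46, 9.59 and 9.86. They rose by 2.01 ± 0.36 and 1.81 ± 0.28 (adjusted p = 0.0117 and 0.00657), that is by more than any of the 58 members; the difference of these from Cox7a2 and Cox8a was not tested.

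**Figure D3:**
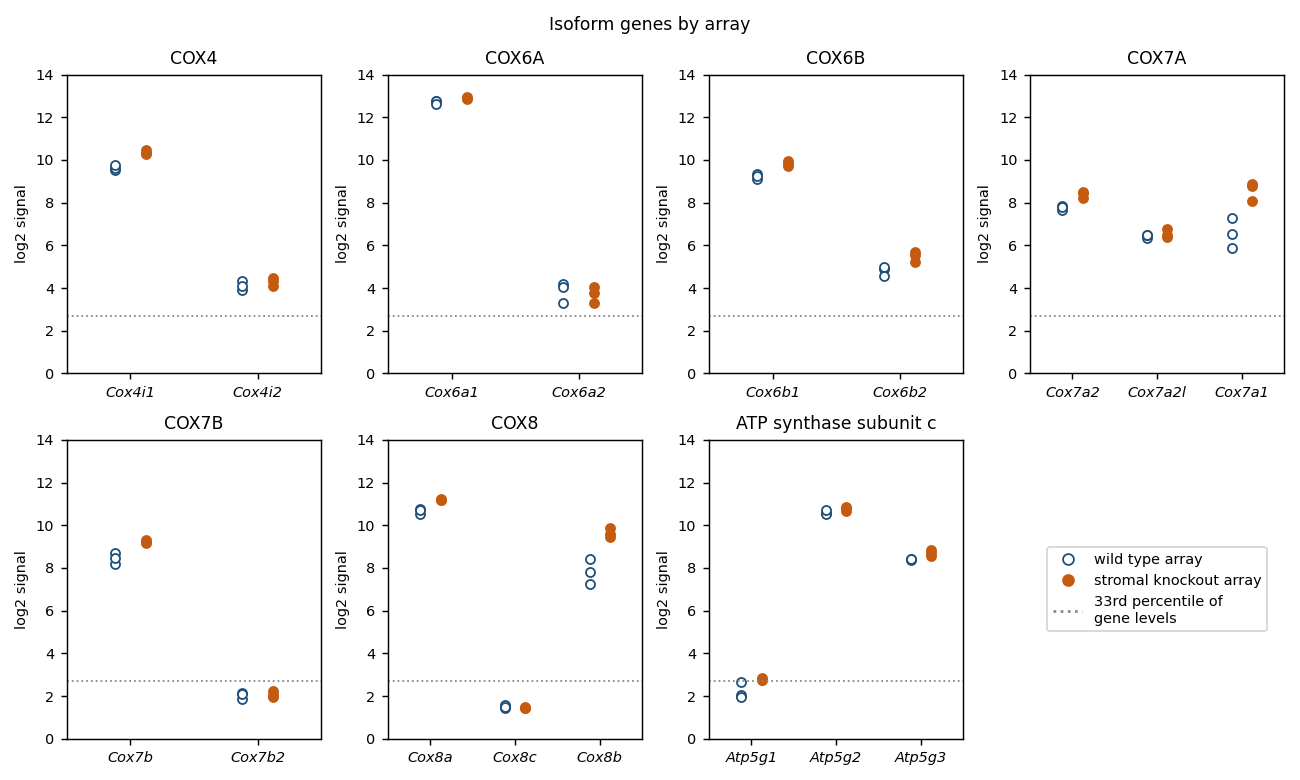
Log2 signal of isoform genes on each wild-type (open circles) and stromal knockout (filled circles) array, 3 per group, with the limit for low levels (2.68) dotted; levels of different genes are not comparable because each is read by its own probes. Cox7a1 and Cox8b rose by 2.01 and 1.81, Cox4i1 by 0.71 and Cox8a by 0.54, whereas Cox4i2, Cox6a2, Cox7a2l and the 3 Atp5g genes did not pass.

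Of the 7 assembly factors of complex IV, 3 rose, and the differences of the others ran from 0.10 to 0.46. Cox17, a copper chaperone, rose by 0.69 ± 0.12, Cox10, which makes heme O on the way to heme A, by 0.67 ± 0.12, and Cox14, which acts with newly made core subunit 1, by 0.67 ± 0.11. Their adjusted p lay between 0.00777 (Cox14) and 0.0101 (Cox10), and all 3 passed whichever array was left out. Cox15, which completes heme A, and Cox18, which inserts a core subunit into the membrane, differed by 0.42 ± 0.11 and 0.46 ± 0.13 with groups apart but did not pass (adjusted p = 0.0524 and 0.057). Cox16 and Cox19 differed by 0.10 and 0.24 with overlapping groups, and Cox16 was at -0.0018 without wild type 1. Among the ubiquitous subunits, Cox7c (0.35 ± 0.15, adjusted p = 0.171) joined Cox6a1 in not passing.

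In complex V, differences were mostly positive, and subunits of the head, stalks and membrane part were among the rises. Of 18 members 7 rose and 0 fell (limma), 15 had all knockout arrays above wild type, and the median difference was 0.46. Atp5l, a membrane subunit at the dimer interface, read 9.29, 9.40 and 9.50 in wild type and 10.25, 10.11 and 9.94 in the knockout, a rise of 0.70 ± 0.13 (adjusted p = 0.012). Atp5e, a central stalk subunit, read 6.98, 7.31 and 7.26 against 7.72, 7.88 and 7.83 and rose by 0.63 ± 0.13 (adjusted p = 0.02). Atp5pb, the long subunit of the peripheral stalk, read 9.65, 9.71 and 9.71 against 10.24, 10.39 and 10.25 and rose by 0.60 ± 0.11 (adjusted p = 0.012). In all 3 the lowest knockout array stood well above the highest wild-type array. The catalytic head genes Atp5a1 and Atp5b rose by 0.53 ± 0.12 and 0.46 ± 0.11, the central stalk gene Atp5c1 by 0.46 ± 0.11 and the membrane subunit Atp5md by 0.52 ± 0.11. The count is sensitive to single arrays and settings: it was 1 without knockout 2, 3 with wild type 1 or 3 or knockout 1 or 3 left out and 4 with wild type 2 left out, but 12 with an intensity trend, 11 with low genes left out and 15 with array medians centred. Atp5l passed without any 1 array, Atp5pb lost its call without knockout 2 (adjusted p = 0.0539), Atp5e without 4 of the arrays (0.0506 to 0.0759), Atp5a1, Atp5md and Atp5c1 without 5 (0.0508 to 0.118), and Atp5b without each of the 6 (0.0591 to 0.1).

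Many complex V genes lay just short of the threshold. Atp5d, Atp5k, Atp5mpl, Atp5j and Atp5h differed by 0.39 to 0.47 with groups apart and adjusted p of 0.0543 to 0.0863. Atp5o, which links the stalk to the catalytic head and confers oligomycin sensitivity, differed by 0.58 ± 0.19 (adjusted p = 0.0918). Atp5h had another probe set, 17271891, with a lower level, which rose by 0.83 ± 0.11 (adjusted p = 0.00418 over all one-symbol probe sets), so its probe sets differed in their call. The reverse held for Atp5e, which rose above. Its other probe set, 17380366, also with a lower level, differed by 0.39 ± 0.24 with overlapping groups (limma adjusted p = 0.363). Atp5j2, a membrane subunit, read 3.80, 4.05 and 3.74 in wild type and 3.44, 4.29 and 3.81 in the knockout. It was the subunit nearest to no difference (-0.02 ± 0.21; interval -0.51 to 0.48), with a sign that turned positive with array weights (0.10), repeated quantile normalization (0.15), array medians centred (0.17), or without wild type 2 (0.07), knockout 1 (0.19) or knockout 3 (0.0017).

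The c-ring, the rotor of ATP synthase, is built from subunit c, which Atp5g1, Atp5g2 and Atp5g3 encode as the same mature protein with different import sequences. Control of Atp5g1 is known to bear on the amount of ATP synthase in brown fat. None of the 3 genes passed (limma; 2 at an unadjusted p under 0.05). Atp5g2 read 10.58, 10.51 and 10.69 in wild type and 10.85, 10.83 and 10.65 in the knockout, which overlap, at 0.18 ± 0.12 (adjusted p = 0.377; interval -0.09 to 0.46). Atp5g3 read 8.42, 8.35 and 8.41 against 8.86, 8.69 and 8.57, apart but not past the threshold (0.31 ± 0.12, adjusted p = 0.147; interval 0.03 to 0.59); it passed with array medians centred. Atp5g1 read 2.65, 2.03 and 1.94 against 2.73, 2.87 and 2.74. Its wild-type mean of 2.21 lies under the low limit of 2.68, so its difference of 0.57 ± 0.19 (adjusted p = 0.0996) cannot be sized; without wild type 1 it was 0.79 and passed.

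**Figure D4:**
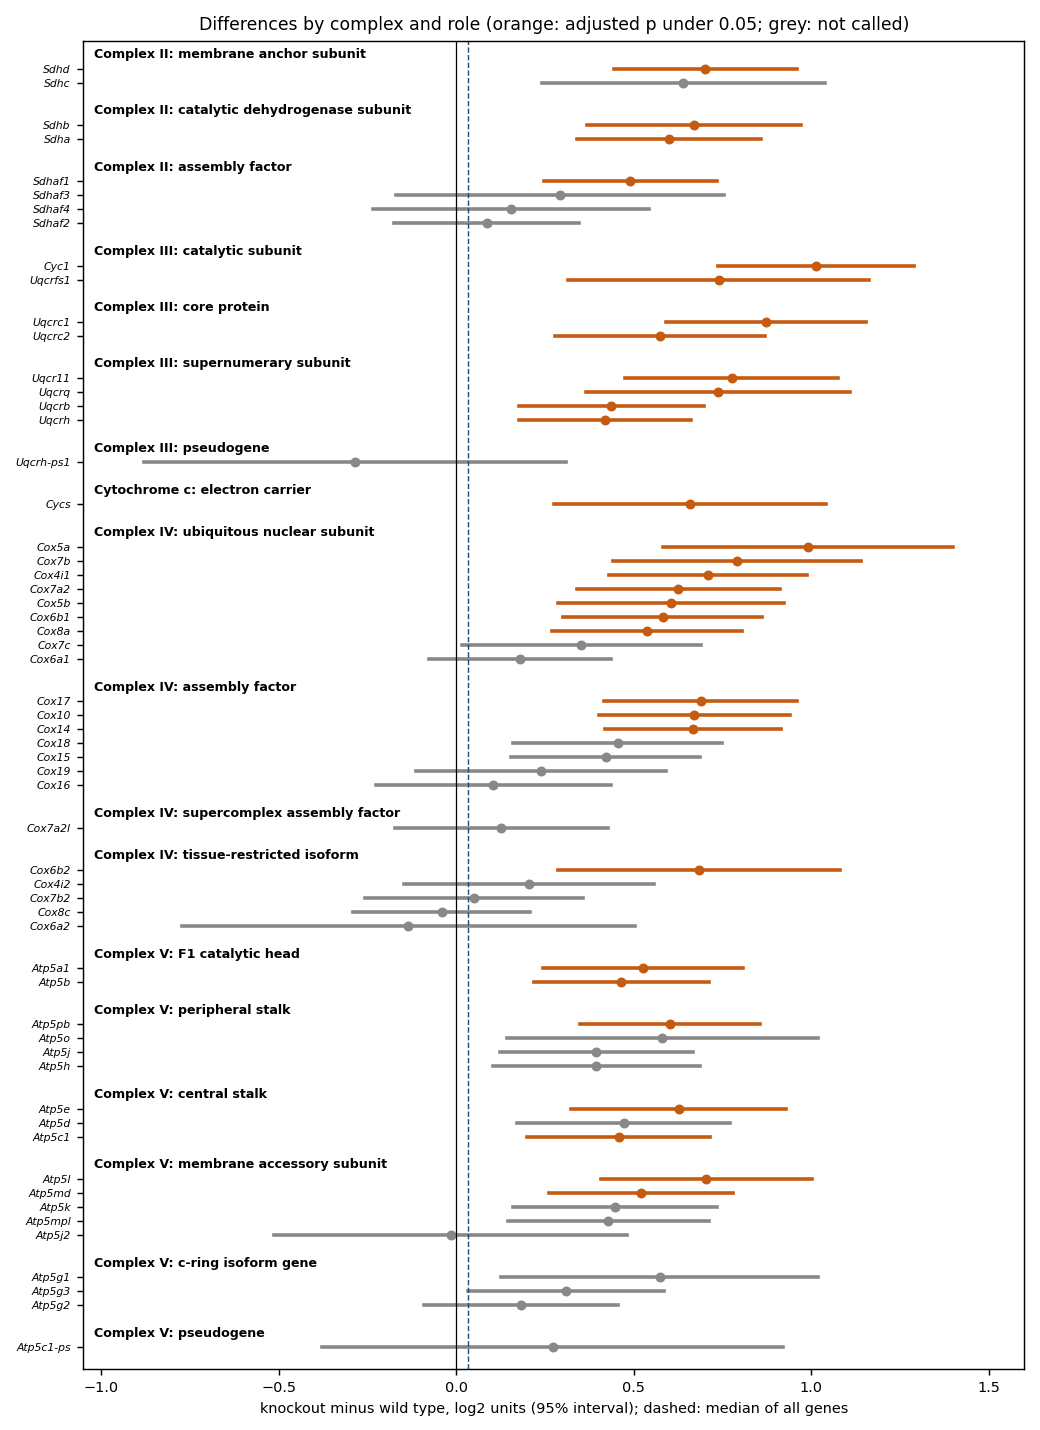
Difference between knockout and wild type for each of the 58 genes in log2 units with its 95% interval (3 arrays per group), grouped by complex and role; orange genes passed the threshold and the dashed line is the median of all genes (0.03). All 8 protein-coding genes of complex III are orange, as are 7 of 9 ubiquitous complex IV subunits, but 0 of 3 c-ring genes.

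Roles are set side by side here, without a test of the difference between them. Of 38 subunits common to all tissues 25 rose, with a median of 0.58, and of 12 assembly factors among the members 4 rose, with a median of 0.36. Among 27 measured assembly factors and regulators of these complexes with other symbols, 9 rose and 1 fell, with a median of 0.35. The largest rises there were in Lyrm7 (0.86 ± 0.18), which stabilises the Rieske protein, Lrpprc (0.81 ± 0.14), which protects mitochondrial messenger RNA, and Atpaf2 (0.79 ± 0.13), a chaperone of the catalytic head. The rise of Lyrm7 was lost without 4 of the arrays (adjusted p 0.0532 to 0.0603). The gene that fell was Atpif1, which encodes the inhibitor that stops ATP synthase from running backwards. Atpif1 read 9.75, 9.64 and 9.45 in wild type and 9.20, 8.95 and 8.98 in the knockout, a fall of 0.57 ± 0.13 (adjusted p = 0.0303). All knockout arrays lay under wild type, whereas 7 of 17 measured subunit genes of the enzyme it inhibits rose. The fall of Atpif1 did not pass with array medians centred (-0.38, adjusted p = 0.084) or without 4 of the 6 arrays (0.0775 to 0.103).

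Other mitochondrial genes give a frame for these values. Of 32 nuclear complex I subunits 22 rose and 0 fell (31 and 0 at an unadjusted p under 0.05), with a median of 0.57. Of 11 outer membrane genes 3 rose and 0 fell (5 and 0 unadjusted), with a median of 0.34. Samm50, part of the machinery that inserts outer membrane proteins, rose by 0.77 ± 0.11, while the pore gene Vdac1 differed by 0.21 ± 0.10 (adjusted p = 0.263). Of the 4 carriers that move ADP, ATP and phosphate across the inner membrane, Slc25a5 rose (0.50 ± 0.12, adjusted p = 0.0322) and 0 fell (2 and 0 unadjusted); the Slc25a5 call was lost with repeated quantile normalization (0.36, adjusted p = 0.106) and without 5 of the arrays. Among 14 transcription factors and coactivators of respiratory genes, Ppargc1a, Ppargc1b and Esrrg rose, by 1.50 ± 0.19, 1.45 ± 0.18 and 0.93 ± 0.17, and Esrrb fell by 1.15 ± 0.26, a call lost without 3 of the arrays (adjusted p 0.058 to 0.087). Nrf1, Gabpa and Yy1, whose motifs were read above, differed by -0.22, 0.28 and -0.13 (adjusted p = 0.288, 0.213 and 0.556).

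**Figure D5:**
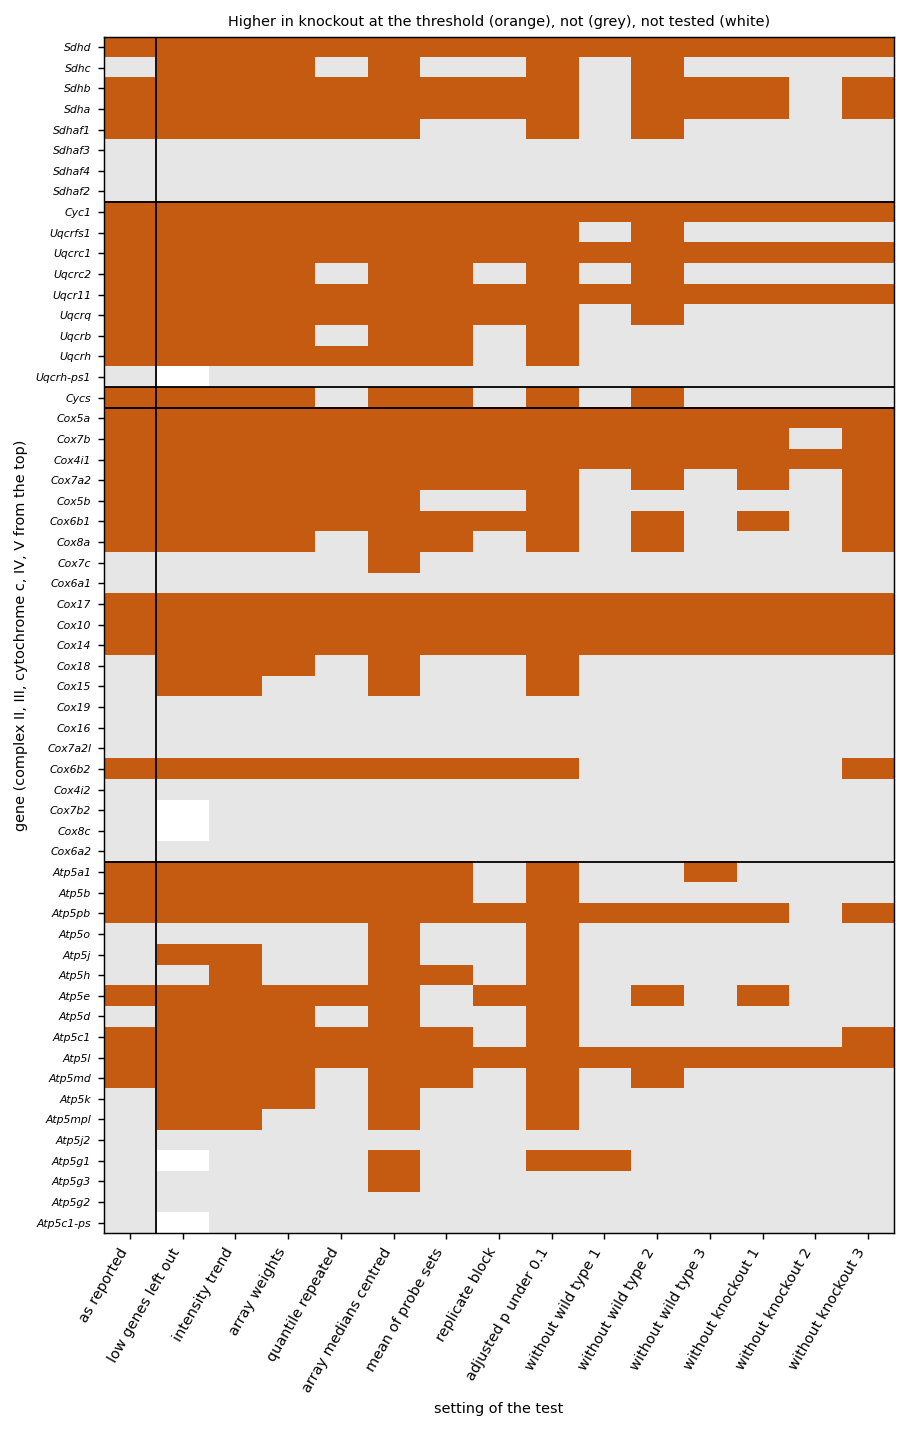
Whether each of the 58 genes was higher in the knockout at the threshold (orange) or not (grey) as reported and under 14 other settings of the test; white marks genes not tested because low genes were left out. In the column without knockout 2, 10 genes are orange, and these are the genes that stay orange in every column.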

How the data were processed

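Total RNA (400 ng) from each gland was hybridised to an Affymetrix whole-transcript array, per the labels' protocols. The authors deposited log2 signals for every probe set on the 6 arrays; the submitters' processing notes name RMA and limma, without versions. That the logarithm has base 2 was inferred from RMA's convention and from values of up to 13.4. How probes were filtered and summarised, and the genome build, are not stated.

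Of 41345 probe sets, 23521 have a single symbol in the platform annotation; 1814 have several and 16010 are unlisted, and neither kind stood for a gene. Each of 22180 genes was represented by its brightest single-symbol probe set (mean of all arrays). Limma 3.58.1 (R 4.3.3; linear fit, empirical Bayes) compared the genotypes, with Benjamini-Hochberg adjustment across all genes and significance at 0.05; standard errors are moderated. These steps were tested on simulated data whose added changes were larger than most rises reported here. How often smaller changes would be called was not tested. Of gene means 33% lie under 2.68, including those of 5 members, so 53 passed as not low. The number of arrays limits the precision.

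Members and 16 gene lists (202 of 233 entries measured) were chosen with earlier results of these data known. Full values are given for the 3 largest differences past the threshold in each complex, the member nearest 0 and the lowest member of each, and all isoform genes; Mmp14, Krt8, Ucp1, Atpif1, Des and Tnni1, and other members past or near the threshold, were added after their values were seen. Alternatives varied the filter on low genes, the variance trend, array weighting, scaling (repeated quantiles, centred medians), the choice of probe set, blocking by replicate number, the threshold (0.1) and the arrays included.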

Additional observations from a re-analysis of the deposited data

Results flagged for a closer look

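Probe sets annotated to several genes were left out of the members. Of these, 3 of 5 that name a respiratory gene had all knockout arrays above all wild-type arrays, as had 17.2% of all one-symbol genes. Probe set 17547698, annotated to Cox6c and Gm6265 together, read 10.49, 10.60 and 10.50 in wild type and 11.15, 11.32 and 11.30 in the knockout, a difference of 0.72 ± 0.11 log2 units (limma adjusted p = 0.00801 over all annotated probe sets). Probe set 17316436, with the same annotation, differed by 0.60 ± 0.14 (adjusted p = 0.0351), and probe set 17260023, annotated to Uqcr10 and Gm6293, by 0.53 ± 0.14 (adjusted p = 0.0468). The others overlapped between groups and did not pass. Probe set 17255081, annotated to Tom1l1 and Cox11, differed by 0.23 ± 0.21 (limma adjusted p = 0.566). Probe set 17293863, annotated to Uqcrb and Gm10767, differed by 0.60 ± 0.29 (limma adjusted p = 0.249). Which of the genes named for a probe set gave its signal was not tested.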

How the results depend on the processing

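Under 14 alternatives, 10 of the 31 rises passed each time and 0 members fell in any (limma); 52 of 58 differences were positive in every setting. With 1 array left out, rises ran from 10 to 25 for all members, 1 to 5 for complex II, 3 to 6 for complex III, 5 to 11 for complex IV and 1 to 4 for complex V, and the median difference from 0.48 to 0.52; fewer samples remain there. Same-numbered arrays showed little shared deviation (correlations -0.03, -0.05 and -0.03). Such correlations cannot show whether these arrays were matched by litter. With the replicate number as a block 20 members rose, 5 of them in complex III and 3 in complex V, where 689 of all genes rose. Complex V gave 11 rises with low genes left out, 12 with an intensity trend, 15 with array medians centred and 14 at a threshold of 0.1. Rises among all genes also grew there, from 1121 to 1417, 1550, 3155 and 1857 in the same order. A threshold of 0.1 cannot call fewer genes than 0.05 on the same fit. The cause of the growth in the other settings was not tested. Centring moved the members' median to 0.69. With the mean of a gene's probe sets 29 members rose, and Sdhaf1, Cox5b and Atp5e lost their calls. With repeated quantile normalization 26 members rose. Cycs, Uqcrc2, Uqcrb, Cox8a and Atp5md lost their calls there, and also with the replicate block. The sign changed in 4 of the 29 members given with full values by rule, none past the threshold, and elsewhere in Cox16 (-0.0018 without wild type 1). Atp5j2 was 0.10 with array weights, 0.15 with repeated quantile normalization, 0.17 with medians centred and -0.24 to 0.19 with an array left out (0.07 without wild type 2, 0.0017 without knockout 3). Cox6a2 was 0.035 with repeated quantiles, 0.052 with medians centred and -0.41 to 0.073 with an array left out (0.04 without wild type 1). Cox7b2 was -0.012 with repeated quantiles and -0.036 to 0.11 with an array left out (-0.02 without knockout 2). Cox8c was 0.14 with medians centred. Over these 29 genes, 349 of 402 alternative values kept direction and call.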
